A study of Mus musculus with 4 samples.

Results

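The genes described here are 8 transcription factor genes of 4 paralogous pairs, Snai1 and Snai2, Twist1 and Twist2, Zeb1 and Zeb2, and Prrx1 and Prrx2, which are grouped because their products are known from epithelial-mesenchymal transition (EMT) and mark mesenchymal cells. They were chosen by name, with earlier results of these data known. All probes that carry one of these names were taken, 11 probes among the 39429 gene probes of the array. All 8 genes were among the 22461 genes tested. Expression was measured in ureters dissected from wildtype NMRI mouse embryos at E12.5 (embryonic day), pooled, and kept as explants for 18 h. The treated pools received 10 µM IWP-2. By the study's general culture methods the control pools received its solvent DMSO alone, while a figure legend calls them untreated. Strain, genotype, stage and culture time were the same for treated and control pools. IWP-2 inhibits Porcupine, the acyltransferase that lipidates WNT ligands before they leave the cell. It was added to the medium of the whole explant, and its effect was not measured separately in epithelium and mesenchyme. On each of 4 two-colour Agilent arrays 1 treated pool was set against 1 control pool, with the treated RNA in red on arrays 1 and 3 and in green on arrays 2 and 4. The labels name 4 pools of each kind without saying that they came from separate litters, so that the p-values measure the spread between these arrays. The study's methods also give 4 for this stage, but a figure legend speaks of 2 pools. If there were 2 pools, arrays would repeat the same pools, and neither SD nor p-value would measure the spread between pools.

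The young ureter consists of an epithelial tube and a coat of mesenchyme, and WNT ligands made by the tube act on the inner cells of this coat. SNAIL and ZEB proteins are zinc finger repressors that bind E2-boxes, DNA motifs with the letters CACCTG, in genes of epithelial junctions. TWIST proteins are basic helix-loop-helix (bHLH) factors that pair with E proteins such as TCF12, and PRRX proteins are paired-type homeodomain factors of limb, craniofacial and other mesenchyme. In cancer cells and in the early embryo factors of these families are known to loosen epithelia, but in an organ such as the ureter they are also part of the normal make-up of mesenchyme.

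The factors did not all respond to IWP-2 in the same direction. Snai1 fell most, Zeb2, Prrx1, Prrx2 and Snai2 fell less, Twist1 rose 1.81-fold, Twist2 rose slightly, and Zeb1 did not pass the test. With limma over all genes tested, 5 of the 8 genes were lower, against a background of 15% of all genes, and 2 were higher, against 18.1%. As the 8 genes were chosen with earlier results of these data known, these counts describe them and are not a test. The log2 ratio of treated over control signal had a median of -0.22 over the 8 genes, beside 0.0011 over all genes tested. Snai1 alone was at least 2-fold lower, as were 0.735% of all genes. Of the 11 probes, 10 passed the test in the fit of single probes (32.7% of all probes did). Only Zeb2 and Prrx1 had more than 1 probe, and in both the probes had the same direction. For 5 genes, Snai1, Twist1, Zeb2, Prrx1 and Prrx2, the 4 control and the 4 treated channel signals did not overlap, which held for 22.4% of all genes.

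**Figure D1:**
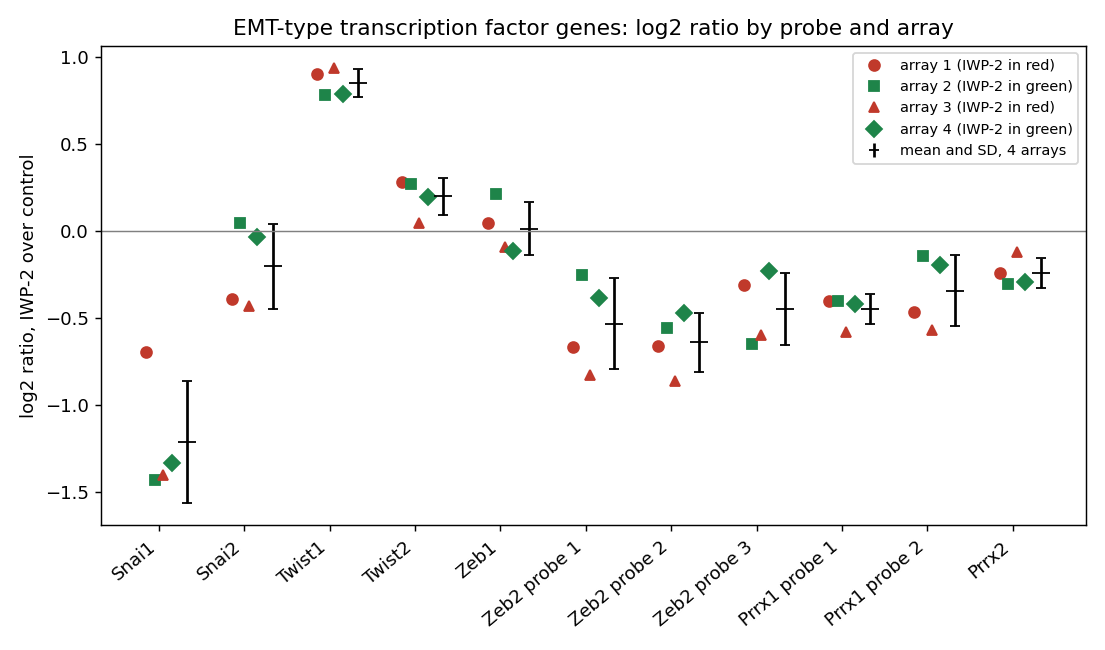
Log2 ratio of IWP-2 over control for the 11 probes of the 8 genes, with 1 symbol per array (red symbols, treated RNA in red; green symbols, treated RNA in green) and the mean with SD over 4 arrays in black. Snai1 lies lowest at a mean of -1.21 and Twist1 highest at 0.85. The ratios separate by dye order for Snai2, which lies close to 0 with treated RNA in green. They also separate for Twist1, Prrx2, the brighter Zeb2 probes and the dimmer Prrx1 probe, without a change of sign.

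WNT signalling was lowered in the same RNA. All 6 WNT feedback genes looked at fell, with a median log2 ratio of -1.58, among them Axin2, a negative regulator of the pathway, at -1.56 ± 0.09 (SD, n = 4; limma adjusted p = 1.23e-05), and Lef1, a nuclear effector, at -1.47 ± 0.16 (adjusted p = 1.23e-05). Raw spot intensities had medians from 368 to 711 in control channels and from 385 to 694 in treated channels, over a local background of 28 to 77. Across the genes tested, which are not independent replicates, the log2 ratios of any 2 arrays correlated with r between 0.625 and 0.831. The arrays of equal dye order correlated most, with r = 0.798 for arrays 1 and 3 and 0.831 for arrays 2 and 4. Pairs of opposite dye order had r between 0.625 and 0.74. All 11 probes of the factors were well above background in both channels of all 4 arrays. 

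Promoter windows of the RefSeq annotation (build GRCm38.p6) were available for 6 of the 8 genes, in 9 windows. The windows of Snai1 and Twist1, the genes that moved most in either direction, are shown from 250 bases before the start to the start itself, 5′ to 3′ on the strand of the gene, which is the plus strand for both. Capitals mark an E2-box (CACCTG) or the core of a TCF and LEF motif (CTTTG) on either strand. The Snai1 window is chr2:167537945-167538194 and the Twist1 window is chr12:33957421-33957670.
Snai1: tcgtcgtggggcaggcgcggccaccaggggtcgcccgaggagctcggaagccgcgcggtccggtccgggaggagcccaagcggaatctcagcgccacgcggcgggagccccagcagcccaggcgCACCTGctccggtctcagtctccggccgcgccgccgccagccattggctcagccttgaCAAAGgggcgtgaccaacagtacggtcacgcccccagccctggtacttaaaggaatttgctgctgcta
Twist1: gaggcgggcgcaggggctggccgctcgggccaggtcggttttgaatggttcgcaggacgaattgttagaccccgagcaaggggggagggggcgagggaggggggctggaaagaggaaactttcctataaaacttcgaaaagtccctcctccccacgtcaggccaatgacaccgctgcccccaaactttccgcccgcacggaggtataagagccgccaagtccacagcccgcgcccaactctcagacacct
The Snai1 window held 1 E2-box, at positions 125 to 130 counted from its 5′ end, and 1 core on the opposite strand (printed as CAAAG), at positions 183 to 187. The Twist1 window held neither motif. E2-boxes occurred in 17.2% and the CTTTG core in 48.6% of all 32851 windows of this length. Among the factors the E2-box was found in the Snai1 window alone. A CTTTG core was found in the windows of Snai1 and Prrx1 and in all 4 windows of Zeb2, but not in those of Twist1, Twist2 or Prrx2. The Zeb2 windows chr2:45113280-45113529 and chr2:45113254-45113503 overlap, and the core in them is the same site, so the 4 windows are not separate findings. The longer TCF and LEF motifs CTTTGAA and CTTTGAT, present in 7.48% of all windows, were in none of the 9. These are matches of letters in short windows, and binding was not measured.

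Snai1 encodes the SNAIL zinc finger repressor, of which Cdh1 is the classic target. Its probe lies on chromosome 2 at 167368073 to 167368132 (build mm9, as are all probe positions here). The control channel signal, in log2 units after normalisation, was 11.95, 12.29, 12.34 and 12.30 on arrays 1 to 4, and the treated signal was 11.26, 10.86, 10.93 and 10.96. Every treated value lay below every control value, and array 1 had both the lowest control and the highest treated signal. The log2 ratios were -0.69, -1.43, -1.40 and -1.33, with a mean of -1.21 ± 0.35 (SD, n = 4), a 2.32-fold fall (limma adjusted p = 0.000606). Snai1 ranked 109th among the falls of the 22461 genes. The fall on array 1 was smaller than on the other 3 arrays, which differed by little, and without array 1 the mean was -1.39.

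Snai2 encodes SLUG, the paralogue known from neural crest and mesenchyme. Its control signal was 15.68, 15.27, 15.56 and 15.53 and its treated signal 15.29, 15.32, 15.13 and 15.49, so that the groups overlapped. The log2 ratios were -0.39, 0.05, -0.43 and -0.04 on arrays 1 to 4. On both arrays with treated RNA in red the ratio was clearly below 0, and on both with treated RNA in green it was close to 0. The mean was -0.20 ± 0.24 (SD, n = 4), with an adjusted p of 0.0108 in the limma fit, which takes out a dye term for each gene. Without the dye term the adjusted p was 0.145. The dye difference itself, red minus green, was -0.42 ± 0.08 (SE; unadjusted p = 0.00157 by limma, adjusted p = 0.15). The probe lies on chromosome 16 at 14709361 to 14709420.

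Twist1 encodes the bHLH factor needed for cranial and limb mesenchyme, and it was the 1 factor with a clear rise. Control signals of 12.66, 12.83, 12.79 and 12.78 stood against treated signals of 13.57, 13.61, 13.73 and 13.56 on arrays 1 to 4. All treated values were above all control values, and the spread within each group was small (SD of 0.071 and 0.078). The log2 ratios were 0.90, 0.78, 0.94 and 0.79, with a mean of 0.85 ± 0.08 (SD, n = 4; limma adjusted p = 4.56e-05). Only a small part of the genes tested rose more, as Twist1 stood at the 99.7th percentile of the log2 ratios. Its probe lies on chromosome 12 at 34644411 to 34644470.

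Twist2, also called Dermo1 and known from dermal and other connective tissue, rose by far less. The log2 ratios of its probe (chromosome 1, 93744519 to 93744577) were 0.28, 0.27, 0.05 and 0.20, with a mean of 0.20 ± 0.11 (SD, n = 4; limma adjusted p = 0.026). All 4 ratios were above 0, but the control signals, between 12.53 and 12.80, overlapped with the treated signals, between 12.80 and 13.08. The rise was no longer past the threshold without array 1 (adjusted p = 0.104) or without array 2 (adjusted p = 0.0783).

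**Figure D2:**
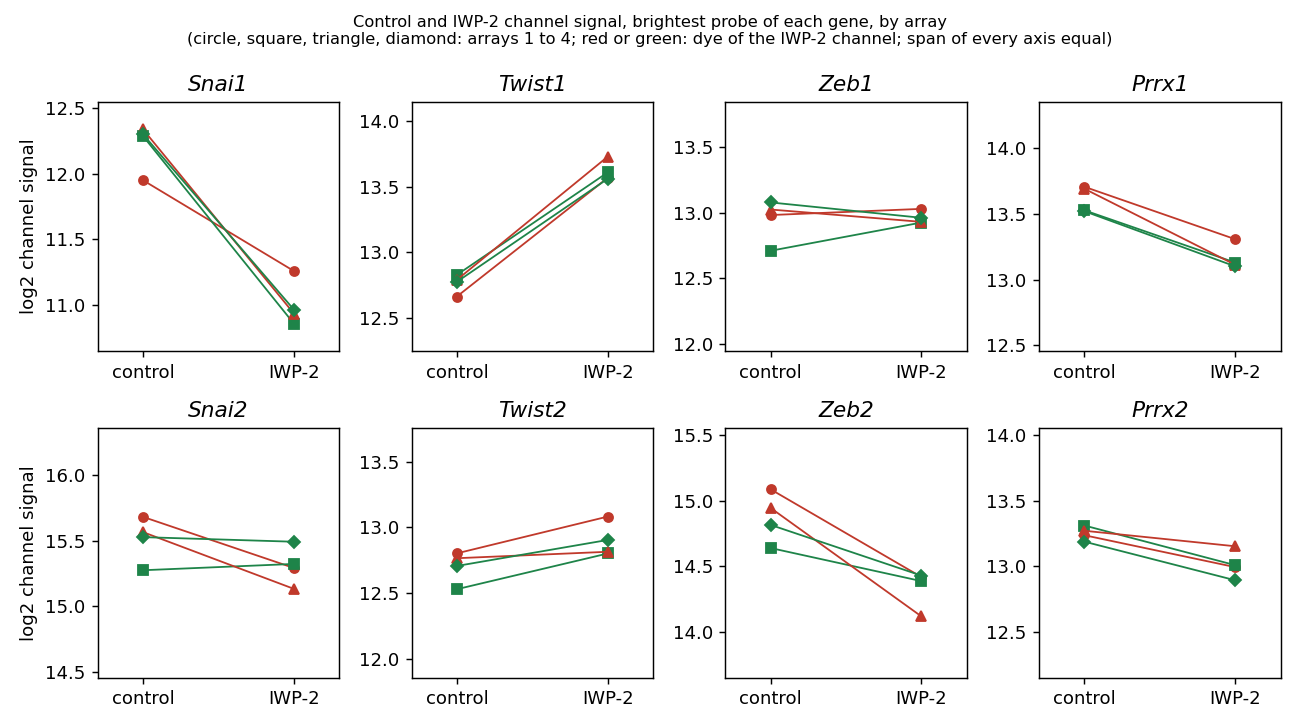
Control and treated channel signal (log2 units, loess and between-array scaling) of the brightest probe of each gene, with 1 line per array and the same span on every axis. All lines fall for Snai1, Zeb2, Prrx1 and Prrx2 and rise for Twist1, while for Snai2 the red lines fall and the green lines stay level. Levels are not comparable between genes.

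Zeb1 and Zeb2 encode large repressors with clusters of zinc fingers at both ends around a homeodomain, and they bind the same E2-boxes as SNAIL proteins. Zeb1 (chromosome 18, 5774613 to 5774672) had log2 ratios of 0.05, 0.21, -0.09 and -0.12, up on arrays 1 and 2 and down on arrays 3 and 4. The mean was 0.01 ± 0.15 (SD, n = 4; limma adjusted p = 0.895), with a 95% interval of the fit from -0.14 to 0.16. Its control signals (12.71 to 13.08) enclosed all treated signals (12.92 to 13.03).

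Zeb2 fell on each of its 3 probes. At the brightest (chromosome 2, 44842774 to 44842833) the control signal was 15.09, 14.64, 14.95 and 14.82 and the treated signal 14.42, 14.39, 14.12 and 14.43 on arrays 1 to 4. The groups did not overlap, and the fall was larger on arrays 1 and 3, with treated RNA in red, than on arrays 2 and 4. The log2 ratios of -0.67, -0.25, -0.83 and -0.39 gave a mean of -0.53 ± 0.26 (SD, n = 4; limma adjusted p = 0.000635), a 1.45-fold fall, with a dye difference of -0.43 ± 0.10 (SE; adjusted p = 0.153). The second probe (44840038 to 44840097) was at -0.64 ± 0.17 (adjusted p = 0.000269 in the fit of all probes). The dimmest (44965914 to 44965973) was at -0.45 ± 0.21 (adjusted p = 0.00665) and showed no such dye order, with means of -0.46 with treated RNA in red and -0.44 in green. The 60 bases of this last probe occur at positions 75 to 134 of the window chr2:45110228-45110527 (GRCm38.p6), which puts them before 1 annotated Zeb2 start and behind the other 3.

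Prrx1 and Prrx2 encode homeodomain factors with partly shared roles in skeletal and vascular mesenchyme. Prrx1 control signals of 13.71, 13.53, 13.69 and 13.52 at the brighter probe (chromosome 1, 165175375 to 165175434) compared with treated signals of 13.31, 13.13, 13.11 and 13.10. The groups were separate, and the log2 ratios lay close together on arrays 1, 2 and 4, at -0.40, -0.40 and -0.42, with a larger fall on array 3 at -0.58. The mean was -0.45 ± 0.09 (SD, n = 4; limma adjusted p = 0.000993), a 1.36-fold fall. The other Prrx1 probe (165185408 to 165185467), which the array design assigns to another transcript variant, was at -0.34 ± 0.21 (adjusted p = 0.00169 in the fit of all probes), with a mean of -0.52 with treated RNA in red and of -0.17 in green. Prrx2 (chromosome 2, 30736678 to 30736737) had log2 ratios of -0.24, -0.30, -0.12 and -0.29, with a mean of -0.24 ± 0.09 (SD, n = 4; adjusted p = 0.00684). Its treated signals, between 12.90 and 13.15, were just below its control signals, between 13.19 and 13.31.

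To ask whether the members of a pair responded differently, the log2 ratio of one was subtracted from that of the other on each array, for 4 pairs. Snai1 minus Snai2 was -0.30, -1.48, -0.97 and -1.30, with a mean of -1.01 ± 0.52 (SD, n = 4). Snai1 was thus the lower of the pair on every array, by least on array 1. Twist1 minus Twist2 was between 0.51 and 0.89, with a mean of 0.65 ± 0.17. Zeb1 minus Zeb2 was between 0.27 and 0.73, with a mean of 0.55 ± 0.22. Prrx1 minus Prrx2 was the smallest difference, between -0.46 and -0.10, with a mean of -0.21 ± 0.17. Each difference had the same sign on 4 of 4 arrays. In the exact two-sided permutation test over the signs, 2 of 16 sign patterns were as extreme as the data for every pair. This is the smallest p that 4 arrays allow, also after adjustment over the 4 pairs, so that the design could not reach 0.05.

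**Figure D3:**
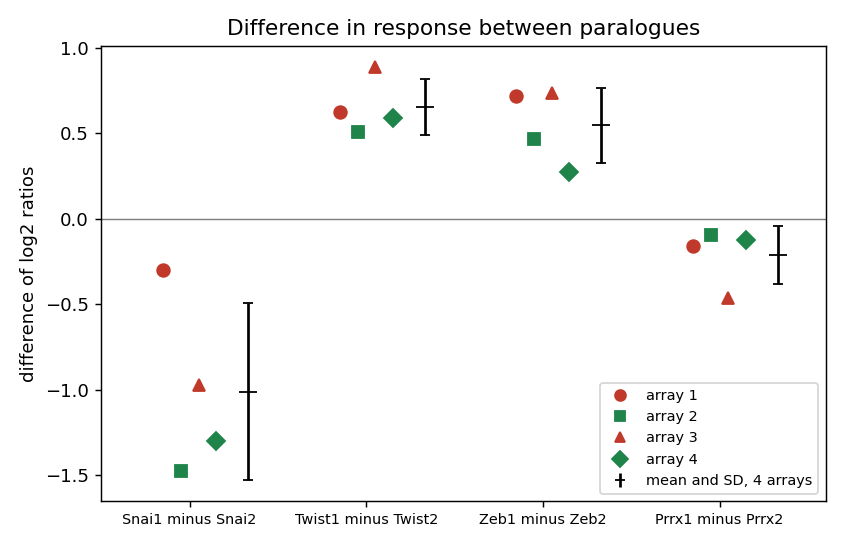
Difference between the log2 ratios of paralogues on each of the 4 arrays (symbols; red, treated RNA in red; green, treated RNA in green), with mean and SD in black. All 4 symbols of a pair lie on the same side of 0, from -1.48 to -0.30 for the SNAIL pair and from 0.51 to 0.89 for the TWIST pair.

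The study filtered its arrays for an intensity above 100 and more than 2-fold change. Applied to all 4 arrays here, this filter was met by 0 of the 8 genes, beside 0.348% of all genes as lower and 0.0735% as higher, so that 0 of 8 is close to the background. The smallest processed-signal change of Snai1 was 1.66-fold, on array 1, and that of Twist1 was 1.73-fold. The study's text speaks of 2 arrays per stage, and with a pair of arrays in place of all 4, a choice made after seeing the data, Snai1 met the filter as lower on arrays 3 and 4 and on arrays 2 and 3, but not in either pair with array 1. With 1.5-fold in place of 2-fold on all 4 arrays, Snai1 passed as lower (0.688% of all genes) and Twist1 as higher (0.361%). By the root mean square distance of the 4 log2 ratios, the named genes closest to Snai1 were Postn, the gene of the matrix protein periostin (distance 0.131), Ptch1, the SHH receptor gene (0.146), Cd83, the gene of an immunoglobulin-type surface protein (0.155), and Lrrc75b (0.155). Their log2 ratios on array 1 were between -0.92 and -0.84, and the choice by distance fixes that they follow Snai1 there.

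Epithelial genes that SNAIL and ZEB proteins are known to repress were mostly higher. Of 23 tested genes of this list, 20 rose (87%) and 1 fell (4.35%), with a median log2 ratio of 0.31. Over all genes tested 18.1% rose and 15% fell, which is the background for every list and marker count. The lists, like the factors, were chosen with earlier results of these data known, so the counts describe them and are not a test. Cdh3, the gene of P-cadherin, had the largest value at 0.93 ± 0.14 (SD, n = 4; adjusted p = 9.57e-05), followed by the tight junction genes Cldn3 at 0.64 ± 0.12 (adjusted p = 0.000582) and Tjp3 at 0.63 ± 0.15 (adjusted p = 0.000501) and by the polarity gene Llgl2 at 0.49 ± 0.01 (adjusted p = 0.000383). Cdh1 rose by 0.34 ± 0.07 (adjusted p = 0.00152). The exception that fell was Cldn1, at -0.32 ± 0.07 (adjusted p = 0.00316). Of 12 transcription factor genes that hold the epithelial state against EMT factors, 7 rose and 0 fell (median 0.32). The ETS factor genes Elf5 (0.62 ± 0.15), Ehf (0.49 ± 0.21) and Elf3 (0.39 ± 0.14) and Grhl2 (0.38 ± 0.20) had the largest values past the test.

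Markers of cell types moved in the same RNA. All 7 epithelium markers, which are also part of the list of repressed genes, rose (median 0.30). The log2 of their summed signal was between 17.46 and 17.57 in control and between 17.65 and 17.96 in treated channels, without overlap. All summed signals here are given in this way, and the brightest genes of a list weigh most in them. In pooled whole ureters a changed number of cells of a type and a changed amount of RNA per cell cannot be told apart, and the part of cell composition in the values of the factors was not tested. The 7 mesenchyme markers did not move together, as Pdgfrb rose by 0.80 ± 0.07, Tbx18 fell by 0.74 ± 0.26, the other 5 did not pass the test, and the summed signals of 18.55 to 18.66 and 18.59 to 18.75 overlapped. All 6 smooth muscle markers fell, with a median of -0.65 and summed signals of 14.93 to 15.48 in control and 14.26 to 14.79 in treated channels. Cnn1 at -0.98 ± 0.29 and Actg2 at -0.87 ± 0.38, genes of contractile proteins, were lowest. Of 7 markers of neural crest and glia 3 rose (42.9%, beside 18.1% of all genes) and 0 fell, led by Erbb3 at 0.43 ± 0.09. Of 6 endothelial markers 4 rose (66.7%) and 0 fell. The summed signals overlapped in both lists. No tested marker of these lists was below background in both groups.

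Mesenchymal genes that are commonly read as raised in EMT mostly did not pass the test. Of 20 genes, 6 fell (30%, beside 15% of all genes), 1 rose (5%, beside 18.1%) and the median was -0.03. The falls were led by Postn at -1.28 ± 0.31 (adjusted p = 0.000551), Thbs1, the thrombospondin gene, at -0.67 ± 0.28 (adjusted p = 0.00462), the smooth muscle actin gene Acta2 at -0.46 ± 0.23 (adjusted p = 0.00786) and the collagen cross-linking enzyme gene Loxl2 at -0.42 ± 0.21 (adjusted p = 0.00731). Genes of abundant matrix and cytoskeletal proteins such as Vim (0.09 ± 0.09) and Col3a1 (-0.07 ± 0.07) did not pass the test; they were picked as examples after their values were seen.

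**Figure D4:**
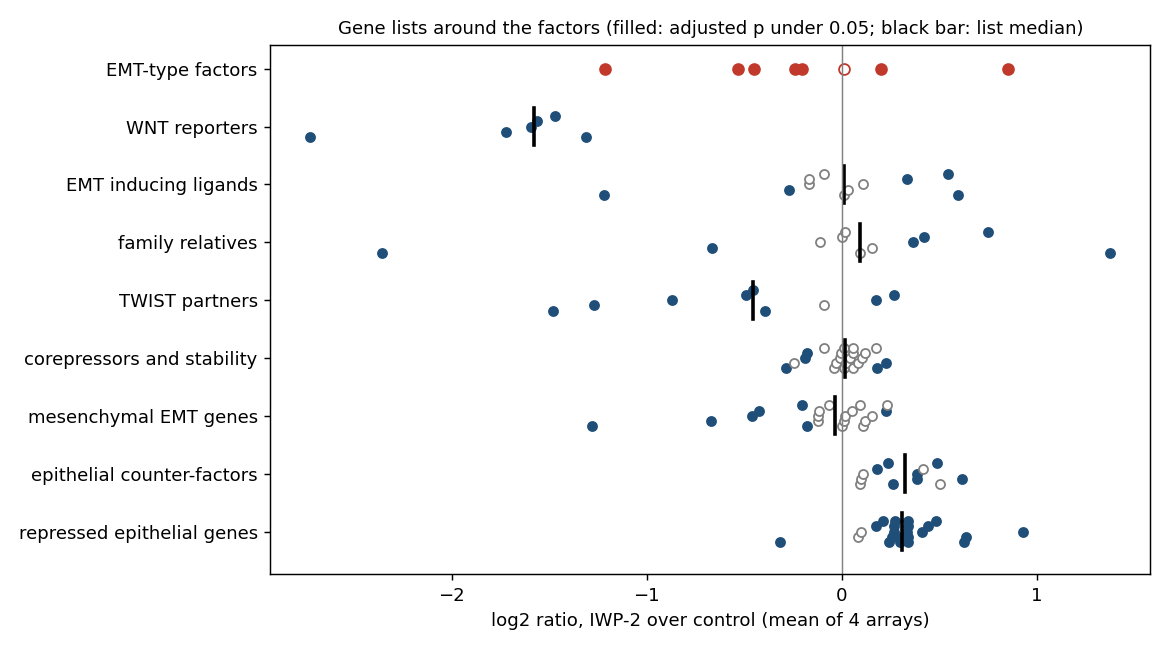
Log2 ratio of IWP-2 over control (mean of 4 arrays) of the genes of 8 lists and of the 8 factors (red), with filled symbols for an adjusted p under 0.05 and a black bar for the list median. The lists of repressed epithelial genes and epithelial counter-factors lie right of 0, at medians of 0.31 and 0.32, and the factors spread over both sides.

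Most genes whose products pair with TWIST proteins or compete for their partners changed. Of 9 genes, 6 fell (66.7%, beside 15% of all genes) and 2 rose (22.2%, beside 18.1%), with a median log2 ratio of -0.46. Among the E protein genes Tcf12 fell by 1.27 ± 0.18 (SD, n = 4; adjusted p = 2.17e-05), Tcf4 rose by 0.18 ± 0.06 (adjusted p = 0.0217) and Tcf3 was at -0.09 ± 0.13 (adjusted p = 0.273). All 4 Id genes, whose products take E proteins out of DNA binding, fell, from Id4 at -1.48 ± 0.10 (adjusted p = 8.27e-06) and Id2 at -0.87 ± 0.05 (adjusted p = 4.95e-05) to Id3 at -0.49 ± 0.11 and Id1 at -0.46 ± 0.09. The bHLH genes Hand1 and Hand2, whose products can pair with TWIST1, had opposite signs at -0.39 ± 0.33 (adjusted p = 0.0364) and 0.27 ± 0.17 (adjusted p = 0.0204).

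Relatives of the factors also differed from each other. Of 17 such genes on the array 11 were tested, of which 2 fell and 4 rose (median 0.09). Their shares were 18.2% and 36.4%, beside 15% and 18.1% of all genes. A further 6 were not well above background, among them Snai3, another SNAIL gene. The largest fall was that of Alx1, a paired-type homeobox gene, at -2.36 ± 0.10 (SD, n = 4; adjusted p = 7.11e-06). Of the bHLH genes close to TWIST, Tcf24 rose by 1.38 ± 0.08 (adjusted p = 2.07e-05) and Scx, the scleraxis gene of tendon precursors, by 0.75 ± 0.19 (adjusted p = 0.000699), while Tcf21, a gene of visceral mesenchyme, fell by 0.67 ± 0.11 (adjusted p = 0.000311).

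Genes of corepressors, modifying enzymes and degradation factors of the SNAIL, TWIST and ZEB proteins changed little, with a median of 0.02. Of 22 genes, 3 were lower (13.6%, beside 15% of all genes) and 2 higher (9.09%, beside 18.1%), no more than the background. The largest changes past the test were those of Ezh2, the Polycomb methyltransferase gene, at -0.29 ± 0.06 (adjusted p = 0.00339), and Kdm1a, the gene of the demethylase LSD1, at 0.23 ± 0.11 (adjusted p = 0.00701). Of 11 tested genes of ligands known to induce EMT, 2 fell (18.2%) and 3 rose (27.3%), with a median of 0.01. These counts are near the background of 15% and 18.1% of all genes. Pdgfc, a platelet-derived growth factor gene, fell by 1.22 ± 0.17 (adjusted p = 2.07e-05), Hgf, the scatter factor gene, rose by 0.60 ± 0.30 (adjusted p = 0.000938), and Fgf9 rose by 0.54 ± 0.08 (adjusted p = 0.000559). The proteins of the 8 factors were not measured.

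**Figure D5:**
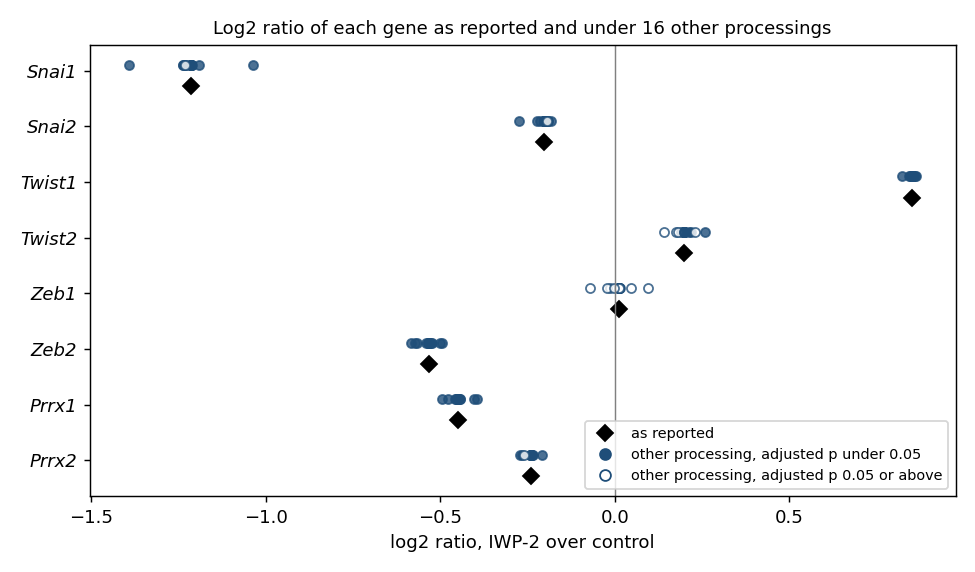
Log2 ratio of each factor as reported (black diamonds) and under 16 other processings (circles; filled for an adjusted p under 0.05). Snai1, Twist1, Zeb2 and Prrx1 keep well away from 0, between 0.82 and 0.86 for Twist1, while Zeb1 lies on both sides of 0. Twist2 and Snai2 lose the test under some settings, and Snai1 and Prrx2 under 1 setting each.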

How the data were processed

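Per the labels, 4 arrays compared IWP-2 pools with control pools. The authors deposited Agilent Feature Extraction 10.7.3.1 files with raw and processed intensity per spot and a log10 ratio, and a series table used here as a score (signed fold changes, normalisation unstated). Raw intensities were corrected in limma 3.58.1 (R 4.3.3; normexp, offset 50), loess-normalised within arrays (span 0.3), and averaged over the spots of a probe without control and outlier spots (3.01% to 3.38%). The offset draws the ratios of dim probes towards 0. Probes well above background in 1 group on all 4 arrays were tested, and the brightest stood for a gene. Log2 ratios were fitted with lmFit and eBayes and a dye term, with Benjamini-Hochberg adjustment over 22461 genes (or 29943 probes) and 0.05 as threshold. Channel signals were scaled between arrays (Aquantile). All 4 arrays lie on 1 slide. The fit was tested on simulated data.

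Members and lists were chosen with earlier results of these data known. All members were named, and of each list up to 4 genes with the largest change past the test, partners of the factors, Axin2 and Lef1, and the 4 genes nearest to members changed at least 2-fold. The lists of 8 pathways and 9 cell types carry no test. Probe positions are on build mm9, for which no annotation was used, and exons were not assigned. Alternatives covered background correction, normalisation, filters, the dye term, probe choice, left-out arrays, arrays averaged in twos and the series table. The number of arrays limits the precision.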

Additional observations from a re-analysis of the deposited data

Results flagged for a closer look

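Of 174 genes and further probes checked, 13 had 1 array far from the other 3, where chance alone gives about 1 in 20, or 8.7. Among the factors these were Snai1, with a log2 ratio of -0.692 on array 1 against -1.428 to -1.334 on the others, and Prrx1, with -0.579 on array 3 against -0.42 to -0.399. Both fell on every array. Array 3 stood apart for 8 of the 13: besides Prrx1 these were the epithelial genes Cdh3 (0.73), Grhl1 (0.45), Elf3 (0.592) and Klf4 (-0.036), the corepressor gene Hdac2 (-0.281), the ubiquitin ligase gene Fbxl14 (-0.241) and the ligand gene Tgfb3 (-0.21). Array 1 also stood apart for Hand2 (0.526) and Ren1 (0.124), and array 2 for Jup (-0.078) and Ntn1 (-0.368).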

How the results depend on the processing

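Snai1, Twist1, Zeb2 and Prrx1 kept their direction under all 16 alternatives and passed the test in each, except that Snai1 missed it with the series table (-1.2296, adjusted p = 0.0573), whose values are rounded. Without 1 array in turn, the count of lower factors stayed at 5 and that of higher factors was 1 to 2, Twist2 ranged from 0.1418 to 0.2578, and Zeb1, which never passed the test, ranged from -0.0699 to 0.0957. With median centring Twist2 (0.1769, adjusted p = 0.0777) missed the threshold, which left 1 factor higher, and Zeb1 was at -0.013. With the series values, 2 factors were lower and 1 higher, since Snai2 (-0.1948), Twist2 (0.2291) and Prrx2 (-0.2605) missed it too; Zeb1 was at -0.003. Without a dye term Snai2 (-0.2021) missed it. By the study's filter at 1.5-fold 1 factor was lower and 1 higher in place of 0, and with arrays 3 and 4 or arrays 2 and 3 alone, chosen after seeing the data, 1 was lower.

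Over all genes, 3360 were lower and 4069 higher, 165 and 39 of them at least 2-fold. With the series values, 2050 genes were lower and 1833 higher, and of the genes of the pathway lists 17 and 18. With processed signals 255 were at least 2-fold lower and 95 higher. Without 1 array in turn, 2177 (without array 3) to 2811 were lower. The causes were not tested. The medians of the lists on corepressors and inducing ligands lay near 0 and changed sign between alternatives (-0.0268 to 0.0563 and -0.0443 to 0.0347), and those of the other 6 pathway lists kept their sign, while the lists of cell types were not run. No value within a slide or scan was computed, since the 4 arrays share both. Averaging arrays in dye-swapped twos changed no call among the factors.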

Other observations

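Markers of further cell types that a ureter explant can hold were mostly slightly higher with IWP-2. Over all genes tested, 18.1% were higher and 15% lower. Of 7 blood markers 5 rose (median log2 ratio 0.27), among them the globin genes Hba-a1 at 0.30 ± 0.27 and Hba-x at 0.28 ± 0.07 (SD, n = 4). Some of these rises followed the dye order. Hba-a1 was at 0.50, -0.03, 0.54 and 0.18 on arrays 1 to 4. Hbb-y, counted as a rise in the fit with a dye term, was at 0.61, -0.10, 0.73 and -0.14, below 0 with treated RNA in green. Hba-x and Hbb-bh1 showed no such order. Of 7 macrophage markers 6 rose (median 0.29), led by Adgre1 at 0.49 ± 0.16 and Cd68 at 0.40 ± 0.09. The summed signals of the blood and macrophage lists overlapped between control and treated channels. Of 6 nephron progenitor markers 5 rose and 1 fell (median 0.22), with Six2, a factor of nephron progenitors, at 1.14 ± 0.27 and Crym at -0.96 ± 0.45. The summed signals, in log2 units, were separate, at 15.50 to 15.62 in control and 15.65 to 15.84 in treated channels. Of 5 markers of renal stroma 1 fell and 1 rose, Penk, the proenkephalin gene, at -2.97 ± 0.44 and Foxd1 at 0.31 ± 0.11, and the summed signals were again separate, at 16.95 to 17.25 and 16.32 to 16.59.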
